A study of Mus musculus with 47 samples.

Results

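The genes described here are 10 genes of foreign-compound handling and redox defence in mouse liver: the sensors Ahr and Nr1i3, the epoxide hydrolases Ephx1 and Ephx2, the glutathione transferases Gstt1, Gstt2, Gstt3 and Gstz1, the thioredoxin reductase Txnrd1 and the efflux pump Abcc4. They were chosen by gene symbol and are 10 of the 6889 genes with a single symbol in the table. Each was represented by 1 transcript (Affymetrix Mouse Gene 1.0 ST). The table used here held 9815 non-control transcripts, which do not cover the whole design. Liver RNA came from female, albino, hairless, immune-competent SKH:QS mice that entered at 8 weeks of age and received 30 weekly treatments over 36 weeks. Values are log2 intensities after robust multi-array average normalization, with 1 array per mouse.

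There were 8 groups. Organic + UVR and Organic-UVR received a sunscreen whose active ingredients were organic filters only (OCM, B-MDM, 4-MBC and octocrylene). TiO2 + UVR and TiO2-UVR received a product of TiO2 nanoparticles with OCM and B-MDM, and ZnO + UVR and ZnO-UVR a product with ZnO nanoparticles as the sole active ingredient. Mice of the 2 control groups, Control + UVR and Control-UVR, wore the same collars and were washed in the same way without any product. The groups marked + UVR were given about 29 kJ/m2 of simulated solar UVR at each treatment and those marked -UVR none. ZnO + UVR had 5 arrays and each other group 6, 47 in all. The paper reports that several mice of ZnO + UVR and of Control + UVR did not reach the planned endpoint, more than in the other groups. Comparisons with these 2 groups may rest on surviving mice only, which was not tested. The study's methods place each group of mice in a shared cage while the sample labels give single housing. If cages were shared, cage and treatment cannot be told apart.

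Foreign compounds taken up through the gut or the skin reach the hepatocyte in the blood and are handled there in steps. Ligand-activated receptors such as Ahr and Nr1i3 (the constitutive androstane receptor, CAR) sense them and switch on oxidizing enzymes, whose reactive epoxide products are hydrolysed by epoxide hydrolases or joined to glutathione by glutathione transferases, and pumps of the ABC family carry the conjugates out of the cell. Thioredoxin reductase keeps thioredoxin reduced and is a classical target of the antioxidant response.

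RefSeq (GRCm38.p6) promoters, from 250 bases before to 50 bases after a start site, were given for 7 of the 10 genes (12 promoters). Those of Nr1i3, the sensor with the wider range of group means, and of Ephx1, Gstt1 and Gstt3, which varied together between mice, are shown 5′ to 3′ on the strand of the gene. Capitals mark an E-box (CACGTG) in Nr1i3 and a D-box in Gstt1 (TTATGNAA, which reads TTATGCAA on the opposite strand). The Nr1i3 promoter lies at chr1:171213720-171214019 (+ strand), the Ephx1 promoter at chr1:181017520-181017819 (- strand), the Gstt1 promoter at chr10:75797682-75797981 (- strand) and the Gstt3 promoter at chr10:75781373-75781672 (- strand).
Nr1i3: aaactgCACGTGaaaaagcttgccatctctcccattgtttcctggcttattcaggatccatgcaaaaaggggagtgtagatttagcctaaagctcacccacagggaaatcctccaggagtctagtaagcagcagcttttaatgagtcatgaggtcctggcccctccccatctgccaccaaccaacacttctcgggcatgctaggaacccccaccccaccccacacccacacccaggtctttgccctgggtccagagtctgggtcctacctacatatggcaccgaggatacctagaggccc
Ephx1: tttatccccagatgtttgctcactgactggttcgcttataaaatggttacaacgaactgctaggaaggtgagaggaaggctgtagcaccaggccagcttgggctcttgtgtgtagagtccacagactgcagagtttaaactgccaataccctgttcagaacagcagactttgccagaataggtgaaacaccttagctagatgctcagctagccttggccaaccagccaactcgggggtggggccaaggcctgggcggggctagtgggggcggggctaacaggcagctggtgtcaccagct
Gstt1: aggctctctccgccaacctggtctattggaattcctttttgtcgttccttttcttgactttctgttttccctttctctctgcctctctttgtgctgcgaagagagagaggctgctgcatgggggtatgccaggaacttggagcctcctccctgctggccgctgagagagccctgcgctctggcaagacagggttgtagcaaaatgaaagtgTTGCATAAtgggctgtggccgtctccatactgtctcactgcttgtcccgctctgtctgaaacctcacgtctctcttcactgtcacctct
Gstt3: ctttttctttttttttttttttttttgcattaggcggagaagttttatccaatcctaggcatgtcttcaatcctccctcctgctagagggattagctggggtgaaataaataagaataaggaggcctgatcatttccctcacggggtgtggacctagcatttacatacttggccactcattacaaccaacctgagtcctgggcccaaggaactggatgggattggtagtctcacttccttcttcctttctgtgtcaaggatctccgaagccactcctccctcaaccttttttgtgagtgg

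4 short motifs were searched on both strands: the E-box, which clock factors bind, the D-box, which the clock output factor Tef binds, the antioxidant response element core (TGACNNNGC) and the xenobiotic response element core (GCGTG), which Ahr binds. Of all 32851 promoters in the table, 7.15% held the E-box, 3.38% the D-box, 12.4% TGACNNNGC and 32.4% GCGTG. Of the 12 promoters, 2 held the E-box (Nr1i3 and Abcc4), 1 the D-box (Gstt1), 3 TGACNNNGC (1 of Txnrd1 and 2 of Abcc4) and 4 GCGTG (3 of Txnrd1 and 1 of Abcc4). No match to any of the 4 motifs was found in the Ephx1 and Gstt3 promoters printed. A match describes the letters only.

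Organic-UVR replicate 1 stood apart. The slope of its values on the mean of all arrays was 0.772, against 0.895 to 1.07 on the other arrays, and its mean over 11 measured hepatocyte markers was 11.04, against 11.62 to 11.81 on the other Organic-UVR arrays. It was the lowest of all 47 arrays for Ahr, Ephx1, Ephx2, Gstt1, Gstt3, Gstz1 and Txnrd1, so several results are also given without it. Defining hepatocyte transcripts were bright on the arrays (Apoa2 13.32 and Serpinc1 12.42 over all arrays). In such bulk samples fewer cells of a type and less RNA per cell cannot be told apart. The samples came from different mice, and the number of arrays limits the precision of every value.

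None of the 10 genes passed the test in any comparison of groups. In 20 comparisons fitted with limma, 0 of 200 differences reached a false discovery rate of 0.1, the one set in the study, after Benjamini-Hochberg adjustment over all 9815 transcripts. At an unadjusted p under 0.05 there were 12 of 200, against 7.99% over all transcripts and comparisons. The smallest adjusted p was 0.142, for Ephx1 in products with organic filters against those without. The shares of all transcripts called (adjusted p under 0.1) were 4.94% in products with organic filters against without, 3.27% in Organic-UVR against Control-UVR, 1.65% in Organic + UVR against Control-UVR, 0.693% in TiO2 + UVR against Control-UVR and 0.0509% in Control + UVR against Control-UVR. They were 0.652% in TiO2 + UVR against TiO2-UVR, 0.703% in TiO2 + UVR against Control + UVR, 0.683% in Organic-UVR against TiO2-UVR, 0.0611% in Organic + UVR against Control + UVR and 0.173% for the interaction of TiO2 sunscreen and UVR. In the other 10 comparisons 0% were called. A moderated F test over the 8 groups called 0 of the 10 genes, against 1.93% of all transcripts, and 0 of the 10 had an unadjusted p under 0.05 in it, against 11.4%.

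**Figure D1:**
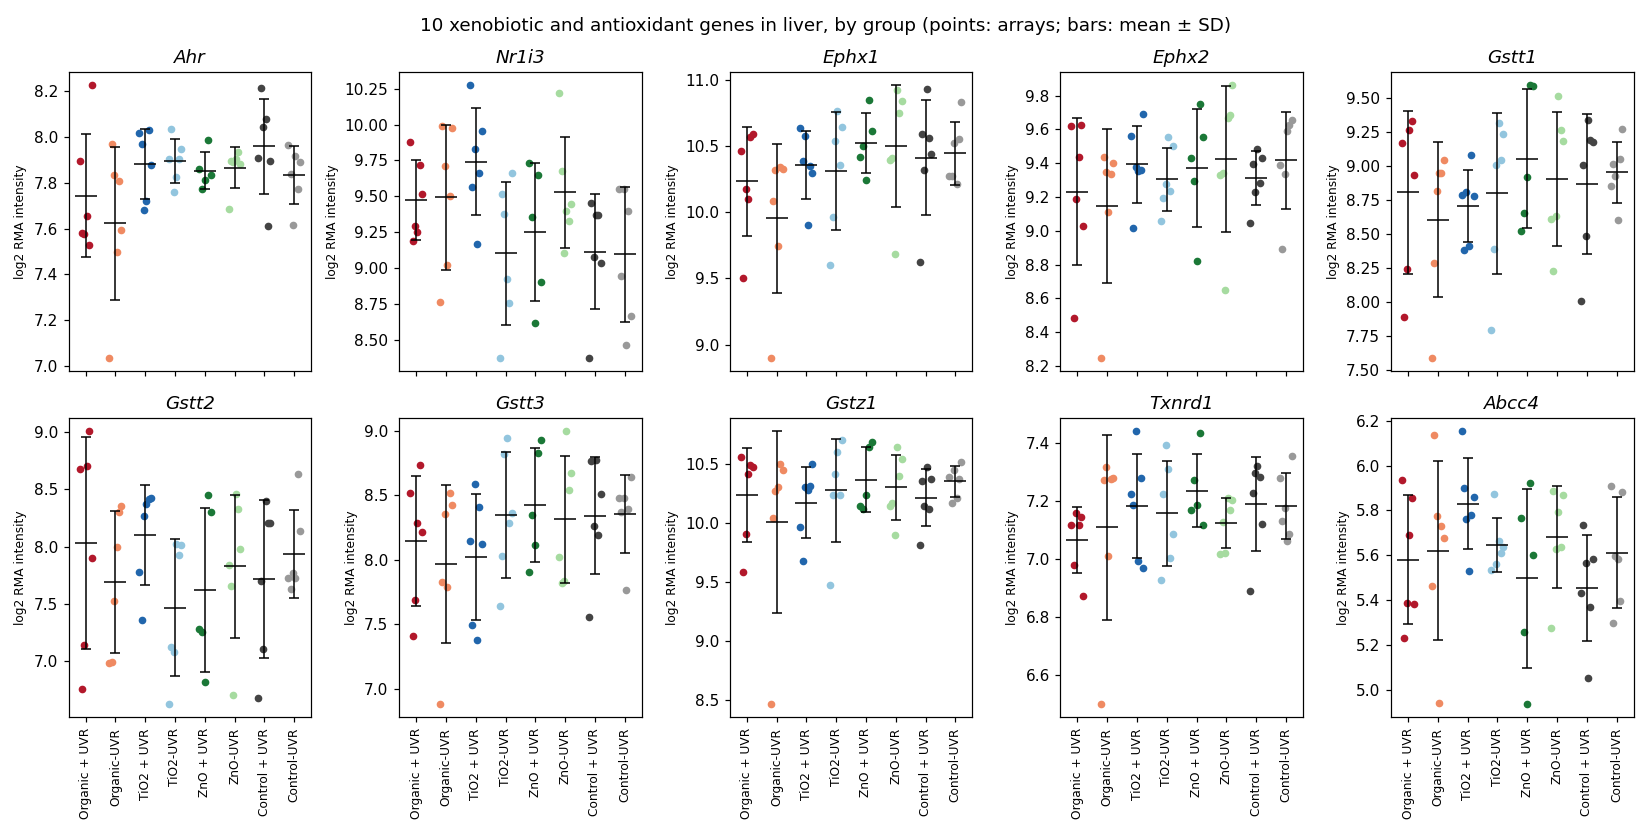
Level of each of the 10 genes on every array (y axis, log2 RMA intensity) by group (x axis), with points for arrays and bars for the group mean and SD. The groups overlapped for every gene. Organic-UVR replicate 1 is the lowest point for 7 genes, for example 8.46 for Gstz1.

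Against Control-UVR, the differences of the 10 genes in the other 7 groups lay between -0.49 (Ephx1 in Organic-UVR) and 0.65 (Nr1i3 in TiO2 + UVR) on the log2 scale. For 6 against 6 arrays the median transcript had a 95% interval of ± 0.29. The SE was smallest for Txnrd1 (0.11) and largest for Nr1i3 and Gstt3 (0.24). A p above the threshold thus does not show that a gene had the same level in both groups. All comparisons with Control-UVR share its 6 arrays.

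**Figure D2:**
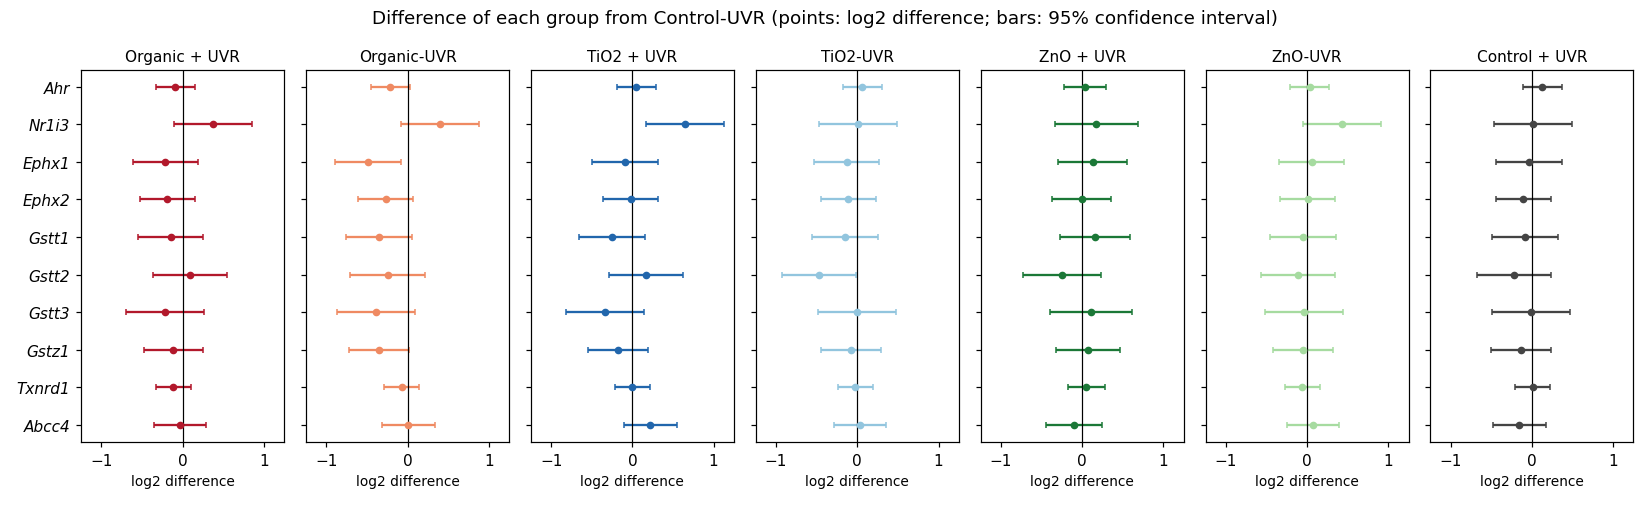
Difference of each group from Control-UVR (x axis, log2 difference) for the 10 genes (y axis), with the 95% confidence interval of the limma fit. The interval excluded 0 for Nr1i3 in TiO2 + UVR (0.65), Ephx1 in Organic-UVR (-0.49) and Gstt2 in TiO2-UVR (-0.47), none with an adjusted p under 0.1.

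Nr1i3, a nuclear receptor that in mouse liver responds to phenobarbital-like compounds, was the sensor with the larger differences. Its mean was 9.47 ± 0.28 in Organic + UVR, 9.49 ± 0.51 in Organic-UVR, 9.74 ± 0.37 in TiO2 + UVR, 9.10 ± 0.50 in TiO2-UVR, 9.25 ± 0.48 in ZnO + UVR, 9.53 ± 0.39 in ZnO-UVR, 9.11 ± 0.40 in Control + UVR and 9.10 ± 0.47 in Control-UVR (SD). It was highest in TiO2 + UVR and lowest in Control-UVR, and no neighbours in the order of the 8 means were farther apart than the smaller of their SDs (widest gap 0.225). In TiO2 + UVR the arrays ran from 9.17 through a median of 9.74 to 10.27. In Control-UVR they ran from 8.47 through 9.17 to 9.55, and the ZnO + UVR arrays were at 9.73, 9.36, 8.62, 9.65 and 8.90. 5 of the 6 TiO2 + UVR arrays lay above every Control-UVR array, and the other one lay inside their range. The difference was 0.65 (SE 0.24, unadjusted p = 0.00979, limma adjusted p = 0.321), in a comparison where 10.2% of all transcripts had an unadjusted p under 0.05.

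TiO2 + UVR was also set against the same product without UVR and against UVR without a product. TiO2-UVR arrays ran from 8.37 through a median of 9.15 to 9.66, and Control + UVR arrays from 8.37 through 9.22 to 9.45. All 6 TiO2 + UVR arrays lay above the mean of either group, though the ranges overlapped. The difference was 0.64 (SE 0.24, limma adjusted p = 0.422) from TiO2-UVR and 0.63 (SE 0.24, limma adjusted p = 0.36) from Control + UVR. The TiO2 + UVR arrays are shared by these differences. The interaction of TiO2 sunscreen and UVR (the UVR difference under TiO2 sunscreen minus that without sunscreen) was 0.62 for Nr1i3 (95% interval -0.06 to 1.30, limma adjusted p = 0.626).

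The Nr1i3 difference between TiO2 + UVR and Control-UVR changed its call with the settings of the fit. It was called with the array slope as a covariate (0.81, limma adjusted p = 0.0538), with arrays weighted by their fit (0.66, limma adjusted p = 0.0672) and in a fit of those groups alone (0.65, limma adjusted p = 0.0779). In the organic-only groups the Nr1i3 difference from Control-UVR was 0.38 (Organic + UVR, limma adjusted p = 0.406) and 0.40 (Organic-UVR, limma adjusted p = 0.346). The Organic-UVR value was 0.57 (limma adjusted p = 0.419) without replicate 1 of that group, and Nr1i3 was called in that comparison with arrays weighted by their fit. With the array slope as a covariate the Nr1i3 differences were 0.63 in Organic + UVR (limma adjusted p = 0.275) and 0.68 in Organic-UVR (limma adjusted p = 0.179). Under the ZnO product, which holds no organic filter, it was 0.17 in ZnO + UVR and 0.43 in ZnO-UVR, with an adjusted p of 1 for each.

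Nr1i3 varied between mice together with Tef, a bZIP transcription factor of clock output. With group means removed, Pearson's r was 0.59 over 47 arrays (Spearman's rho 0.61; permutation p = 2e-05 and 1e-05, adjusted over the 30 pairs of the 10 genes with Npas2, Ciart and Tef to 0.0006 and 0.0003; the smallest p that 100000 permutations can give is 1e-05). Without the 2 arrays farthest from the median of Tef r was 0.55, and within each of the 6 replicate numbers of the labels it was positive (0.49 to 0.78). With the clock repressor Ciart r was 0.47 (rho 0.41; permutation p = 0.00091, adjusted p = 0.0136; for rho p = 0.00693 and adjusted p = 0.0693) and 0.42 without the 2 farthest arrays. With the array slope also removed, r of Nr1i3 with Ciart was 0.38 (permutation p = 0.00992, adjusted p = 0.0992) and with Tef 0.56 (permutation p = 6e-05, adjusted p = 0.0018). Npas2 levels fell into separate clusters, so no pooled r is given for Npas2. Ciart also spread widely in some groups, from 4.87 through a median of 5.62 to 9.04 in ZnO-UVR. Whether its r rests on such a spread was not tested. With only group means removed, no other pair of the 10 genes with Tef or Ciart had an adjusted p under 0.05. Further pairs passed once the means of the replicate numbers were removed too, among them Tef with Gstt2 (r = 0.60, permutation adjusted p = 0.0009) and with Gstz1 (0.59, 0.0032), and Ciart with Gstz1 (0.54, 0.00487) and with Gstt2 (0.52, 0.0057).

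Tef itself averaged 6.81 ± 0.53 in Organic + UVR, 6.90 ± 0.38 in Organic-UVR, 7.04 ± 0.26 in TiO2 + UVR, 6.00 ± 0.20 in TiO2-UVR, 5.80 ± 0.15 in ZnO + UVR, 6.37 ± 0.53 in ZnO-UVR, 6.05 ± 0.32 in Control + UVR and 6.19 ± 0.52 in Control-UVR. The group with the highest mean of Nr1i3, TiO2 + UVR, was also the highest for Tef. The study's methods give an approximate interval from the last irradiation to necropsy. The clock times at which single mice were killed are not given in the sources used here, and their part in the Nr1i3 values was not tested.

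**Figure D3:**
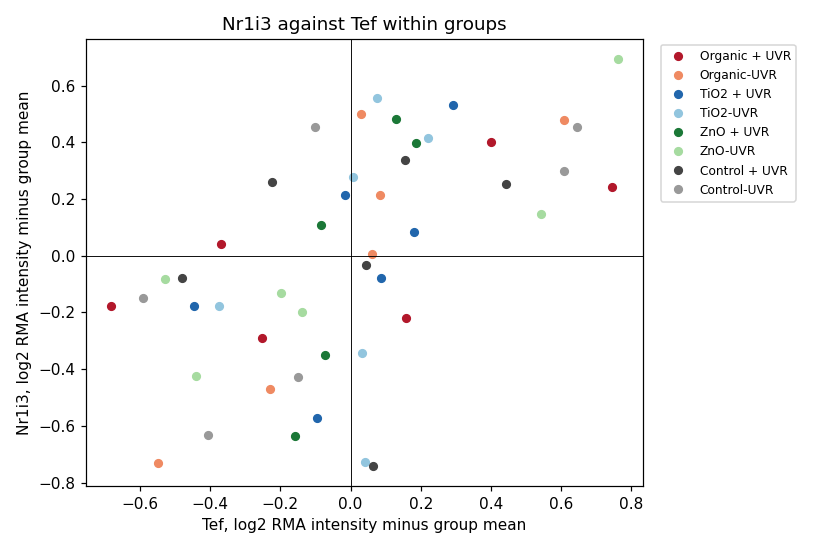
Nr1i3 (y axis) against Tef (x axis) on 47 arrays, each as log2 RMA intensity minus the mean of its group, coloured by group. Arrays with higher Tef tended to have higher Nr1i3 (r = 0.59).

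Ahr, the receptor for dioxin-like aromatic compounds, had the narrower spread of the 2 sensors. Its mean was 7.74 ± 0.27 in Organic + UVR, 7.62 ± 0.34 in Organic-UVR, 7.88 ± 0.15 in TiO2 + UVR, 7.90 ± 0.10 in TiO2-UVR, 7.85 ± 0.08 in ZnO + UVR, 7.87 ± 0.09 in ZnO-UVR, 7.96 ± 0.21 in Control + UVR and 7.83 ± 0.13 in Control-UVR (SD). In Organic-UVR the arrays ran from 7.03 through a median of 7.70 to 7.97, against 7.76, 7.90 and 8.03 in TiO2-UVR. 3 Organic-UVR arrays lay below every TiO2-UVR array and the ranges overlapped. The difference was -0.27 (SE 0.12, unadjusted p = 0.0267, limma adjusted p = 0.493; 8.44% of all transcripts under an unadjusted p of 0.05) and -0.15 (limma adjusted p = 0.92) without Organic-UVR replicate 1. Against Control-UVR the Ahr difference was -0.21 in Organic-UVR and -0.09 without that array. No neighbours in the order of the 8 means were farther apart than the smaller of their SDs.

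Ephx1, the microsomal epoxide hydrolase that opens epoxides of drugs and hydrocarbons, was lowest in the organic-only groups. Its mean was 10.23 ± 0.41 in Organic + UVR, 9.95 ± 0.56 in Organic-UVR, 10.36 ± 0.26 in TiO2 + UVR, 10.31 ± 0.44 in TiO2-UVR, 10.52 ± 0.23 in ZnO + UVR, 10.50 ± 0.46 in ZnO-UVR, 10.41 ± 0.43 in Control + UVR and 10.44 ± 0.24 in Control-UVR (SD). Organic-UVR arrays ran from 8.90 through a median of 10.20 to 10.34, and Control-UVR arrays from 10.21 through 10.40 to 10.83. The ZnO + UVR arrays were at 10.41, 10.50, 10.24, 10.84 and 10.62. All 6 Organic-UVR arrays lay below the Control-UVR mean and 3 of them below every Control-UVR array. The difference was -0.49 (SE 0.20, unadjusted p = 0.0187, limma adjusted p = 0.18; 19.1% of all transcripts under an unadjusted p of 0.05), and -0.32 (limma adjusted p = 0.666) without Organic-UVR replicate 1.

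Pooled over UVR, the 24 arrays of the TiO2 and organic products, both of which hold organic filters, averaged 10.21 for Ephx1 and the 23 arrays without those filters 10.47. The fitted difference was -0.27 (95% interval -0.47 to -0.06, unadjusted p = 0.0117, limma adjusted p = 0.142). In this comparison 3 of the 10 genes had an unadjusted p under 0.05, against 19.6% of all transcripts. The call for Ephx1 turned on single arrays: leaving out ZnO-UVR replicate 3 gave -0.31 (limma adjusted p = 0.0659), TiO2 + UVR replicate 1 -0.30 (0.0673), Organic + UVR replicate 1 -0.30 (0.0641) and Organic-UVR replicate 3 -0.29 (0.0991). It was not called without Organic-UVR replicate 1 (-0.22, limma adjusted p = 0.226). With the array slope as a covariate it was -0.10 (limma adjusted p = 0.633). Ephx1 and the array slope moved together within groups (r = 0.81 over 47 arrays, and 0.77 without Organic-UVR replicate 1), and whether slope and treatment are separate here was not tested.

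Ephx2, the soluble hydrolase of epoxy fatty acids, showed smaller group differences. Its mean was 9.23 ± 0.44 in Organic + UVR, 9.15 ± 0.45 in Organic-UVR, 9.39 ± 0.23 in TiO2 + UVR, 9.30 ± 0.19 in TiO2-UVR, 9.37 ± 0.35 in ZnO + UVR, 9.42 ± 0.43 in ZnO-UVR, 9.31 ± 0.16 in Control + UVR and 9.42 ± 0.29 in Control-UVR (SD). The group means spanned 0.28 from the highest (ZnO-UVR) to the lowest (Organic-UVR). Without Organic-UVR replicate 1 the mean of that group was 9.33, Organic + UVR was the lowest and the span was 0.193. None of its 20 differences had an unadjusted p under 0.05. For both hydrolases neighbours in the order of the means differed by less than the smaller of their SDs.

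The theta-class transferases Gstt1, Gstt2 and Gstt3, which join glutathione to small halogenated compounds and other electrophiles, lie in a cluster with Gstt4 on chromosome 10 in the RefSeq gene table. Being related in sequence, they may share some signal on an array of short probes, and this was not tested. Gstt1 averaged 8.81 ± 0.60 in Organic + UVR, 8.61 ± 0.57 in Organic-UVR, 8.71 ± 0.27 in TiO2 + UVR, 8.80 ± 0.59 in TiO2-UVR, 9.06 ± 0.51 in ZnO + UVR, 8.91 ± 0.49 in ZnO-UVR, 8.87 ± 0.52 in Control + UVR and 8.96 ± 0.23 in Control-UVR (SD). Gstt3 averaged 8.14 ± 0.50, 7.97 ± 0.61, 8.02 ± 0.49, 8.35 ± 0.49, 8.42 ± 0.44, 8.32 ± 0.49, 8.34 ± 0.45 and 8.36 ± 0.31 in the same order of groups. Both were highest in ZnO + UVR and lowest in Organic-UVR, but without Organic-UVR replicate 1 that group averaged 8.81 for Gstt1 and 8.18 for Gstt3, and TiO2 + UVR was the lowest for both. The difference of products with organic filters from those without was -0.23 for Gstt1 (limma adjusted p = 0.201) and -0.25 for Gstt3 (limma adjusted p = 0.243). Without Organic + UVR replicate 1 the Gstt1 difference was -0.28 and was called (limma adjusted p = 0.0714). Without Organic-UVR replicate 1 the differences were -0.20 for Gstt1 (limma adjusted p = 0.32) and -0.21 for Gstt3 (limma adjusted p = 0.379). With the array slope as a covariate they were -0.09 (limma adjusted p = 0.748) and -0.07 (limma adjusted p = 0.846).

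Gstt2 had its largest differences between the TiO2 groups. It averaged 8.03 ± 0.93 in Organic + UVR, 7.69 ± 0.62 in Organic-UVR, 8.10 ± 0.44 in TiO2 + UVR, 7.46 ± 0.60 in TiO2-UVR, 7.62 ± 0.72 in ZnO + UVR, 7.83 ± 0.63 in ZnO-UVR, 7.72 ± 0.69 in Control + UVR and 7.94 ± 0.38 in Control-UVR (SD). TiO2 + UVR arrays ran from 7.35 through a median of 8.32 to 8.42, and TiO2-UVR arrays from 6.63 through 7.52 to 8.03. 4 of the 6 TiO2 + UVR arrays lay above every TiO2-UVR array. The difference was 0.64 (SE 0.23, unadjusted p = 0.00719, limma adjusted p = 0.36), in a comparison where 6.65% of all transcripts had an unadjusted p under 0.05. Beside it, the difference of Gstt3 was -0.33 (SE 0.24) and that of Gstt1 -0.09 (SE 0.20), and whether the genes differ in this was not tested. The Gstt2 interaction of TiO2 sunscreen and UVR was 0.86 (SE 0.32, unadjusted p = 0.0102, limma adjusted p = 0.383; 8.49% of all transcripts under an unadjusted p of 0.05). Against Control-UVR, Gstt2 in TiO2-UVR differed by -0.47 (unadjusted p = 0.0422, limma adjusted p = 0.968), in a comparison where 3.86% of all transcripts had an unadjusted p under 0.05.

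Gstz1, the zeta-class enzyme that also isomerizes maleylacetoacetate in tyrosine breakdown, averaged 10.24 ± 0.40 in Organic + UVR, 10.00 ± 0.77 in Organic-UVR, 10.17 ± 0.30 in TiO2 + UVR, 10.27 ± 0.44 in TiO2-UVR, 10.36 ± 0.28 in ZnO + UVR, 10.30 ± 0.28 in ZnO-UVR, 10.21 ± 0.24 in Control + UVR and 10.35 ± 0.13 in Control-UVR (SD). The wide SD of Organic-UVR came from replicate 1 at 8.46, the next array being at 10.04. None of the 20 differences of Gstz1 had an unadjusted p under 0.05. For the 4 transferases, too, neighbours in the order of the 8 means differed by less than the smaller of their SDs.

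Some of the 10 genes differed between the replicate numbers of the labels, as did many transcripts on the arrays, while none of the 10 passed the test between treatments. An F test over the 6 replicate numbers, with group as a term, called 3 of the 10 genes, against 19.3% of all transcripts: Gstt2 (limma adjusted p = 4.56e-06), Gstt1 (0.000585) and Gstz1 (0.0114). On arrays numbered 1 to 6, mean Gstt2 over the groups was 7.45, 7.31, 7.30, 8.27, 8.39 and 8.14. For Gstt1 the means were 8.42, 8.48, 8.73, 9.13, 9.19 and 9.09, and for Gstz1 9.87, 10.04, 10.20, 10.44, 10.39 and 10.51 (n = 8 each, and 7 for number 6). Ephx2 (limma adjusted p = 0.105), Gstt3 (0.135) and Ephx1 (0.141) were not called, and Ahr, Nr1i3, Txnrd1 and Abcc4 had adjusted p values of 0.437 to 0.801. With 1 array left out, 5 genes were called without Control + UVR replicate 2 (Ephx2 and Gstt3 added) and 6 without TiO2 + UVR replicate 1, TiO2 + UVR replicate 4 or Organic + UVR replicate 1 (Ephx1 added too). The study's methods describe 6 chip batches with a chip of every group in each, although ZnO + UVR has 5 arrays here. The labels do not say that the number is the batch, so a batch and a difference between mice cannot be told apart here. The test over replicate numbers was added after seeing the data.

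**Figure D4:**
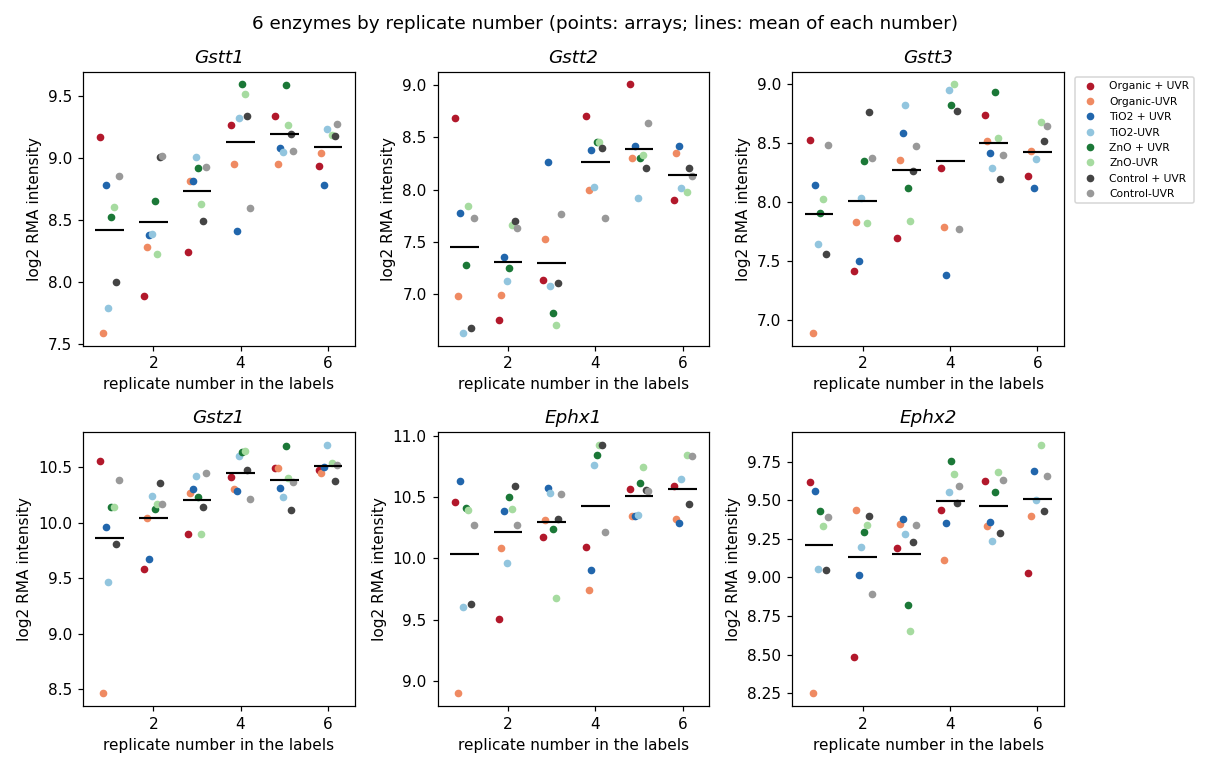
Level of 6 enzymes (y axis, log2 RMA intensity) by the replicate number of the labels (x axis), with a point for each array coloured by group and a line at the mean of each number. Gstt2 means were 8.14 to 8.39 for numbers 4 to 6, and 7.30 to 7.45 for numbers 1 to 3.

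Txnrd1, cytosolic thioredoxin reductase, was the steadiest of the 10 genes. Its mean was 7.06 ± 0.11 in Organic + UVR, 7.11 ± 0.32 in Organic-UVR, 7.18 ± 0.18 in TiO2 + UVR, 7.16 ± 0.18 in TiO2-UVR, 7.23 ± 0.12 in ZnO + UVR, 7.12 ± 0.09 in ZnO-UVR, 7.19 ± 0.16 in Control + UVR and 7.18 ± 0.11 in Control-UVR (SD). The group means spanned 0.17, and the difference of TiO2 + UVR from Control-UVR was 0.00 (95% interval -0.21 to 0.21). Pooled over products, UVR against no UVR differed by 0.02 (95% interval -0.08 to 0.13, limma adjusted p = 0.931).

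Abcc4, an efflux pump of the sinusoidal membrane also known as Mrp4, averaged 5.58 ± 0.29 in Organic + UVR, 5.62 ± 0.40 in Organic-UVR, 5.83 ± 0.20 in TiO2 + UVR, 5.65 ± 0.12 in TiO2-UVR, 5.50 ± 0.40 in ZnO + UVR, 5.68 ± 0.23 in ZnO-UVR, 5.45 ± 0.24 in Control + UVR and 5.61 ± 0.25 in Control-UVR (SD). TiO2 + UVR arrays ran from 5.53 through a median of 5.82 to 6.15, and Control + UVR arrays from 5.05 through 5.50 to 5.73. All 6 TiO2 + UVR arrays lay above the Control + UVR mean, and 5 of them above every Control + UVR array. The difference was 0.38 (SE 0.16, unadjusted p = 0.0234, limma adjusted p = 0.46), in a comparison where 8.46% of all transcripts had an unadjusted p under 0.05. Against Control-UVR the TiO2 + UVR difference was 0.22 (limma adjusted p = 0.671). For Txnrd1 and Abcc4, neighbours in the order of the means lay closer than the smaller of their SDs.

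In Organic-UVR against Control-UVR, 8 of the 10 differences were negative and their median was -0.26, against 0.03 over all transcripts, of which 44.6% were negative. The 10 genes were brighter than most transcripts (percentile of the mean level from 58.2 for Abcc4 to 97.2 for Ephx1), so the 2 medians are of unlike levels. Without Organic-UVR replicate 1 the median of the 10 genes was -0.09, against 0.01 over all transcripts, and 7 of the 10 were negative. Against the same controls, Organic + UVR had a median of -0.12 (8 of 10 negative), TiO2 + UVR of -0.01, TiO2-UVR of -0.05, ZnO + UVR of 0.06, ZnO-UVR of -0.02 and Control + UVR of -0.06. These directions depended on the array slope. With it as a covariate all 10 differences of Organic + UVR were positive (0.01 to 0.63, median 0.10), the median in Organic-UVR was -0.02 (7 of 10 negative), and 8 of 10 differences were positive in Control + UVR (median 0.13), TiO2 + UVR (0.11), TiO2-UVR (0.06) and ZnO + UVR (0.08). Pooled over products, UVR against no UVR gave a median of 0.04, with 0 of 10 genes at an unadjusted p under 0.05, against 6.8% of all transcripts, and with the slope as a covariate a median of 0.09.

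Within groups, mice with a high level of 1 enzyme tended to have high levels of the others. With group means removed, 29 of the 45 pairs of the 10 genes had a permutation p that stayed under 0.05 after adjustment over the 45 pairs. The 15 pairs among Ephx1, Ephx2, Gstt1, Gstt2, Gstt3 and Gstz1 had r from 0.66 to 0.88 (median 0.78). Such values were not particular to these pairs. With all 6888 other genes ordered by r, Gstt3 had rank 31 for Gstt1 and rank 36 for Ephx1, and Gstt2 had rank 450 for Ephx1. The share of all gene pairs that would pass was not tested. Gstt1 and Gstt3 had r = 0.88 and rho = 0.83, and Ephx1 and Gstt3 r = 0.85 and rho = 0.81 (each with permutation p = 1e-05, adjusted p = 3.46e-05 for r and 3e-05 for rho, n = 47). Without the 2 arrays farthest from the median of the gene named first, r was 0.857 and 0.825. Within single replicate numbers it ranged from 0.40 to 0.97 for Gstt1 and Gstt3, and from 0.37 to 0.92 for Ephx1 and Gstt3. Ahr and Gstt2 had r = 0.04 (rho 0.03; permutation p = 0.832 and 0.873, adjusted p = 0.832 and 0.873).

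The same arrays also differed in the overall slope of their values, which was correlated within groups with Gstz1 (r = 0.83), Ephx1 (0.81) and Gstt3 (0.74), and least with Abcc4 (0.33). Without Organic-UVR replicate 1 these were 0.67, 0.77, 0.71 and 0.38. With the slope also removed, an alternative added after seeing the data, the 15 pairs of the 6 enzymes had r from 0.37 to 0.80 (median 0.60), 12 of them with an adjusted p under 0.05, and 14 of all 45 pairs passed. Each array is 1 mouse and 1 chip, so liver and chip cannot be told apart in these correlations.

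**Figure D5:**
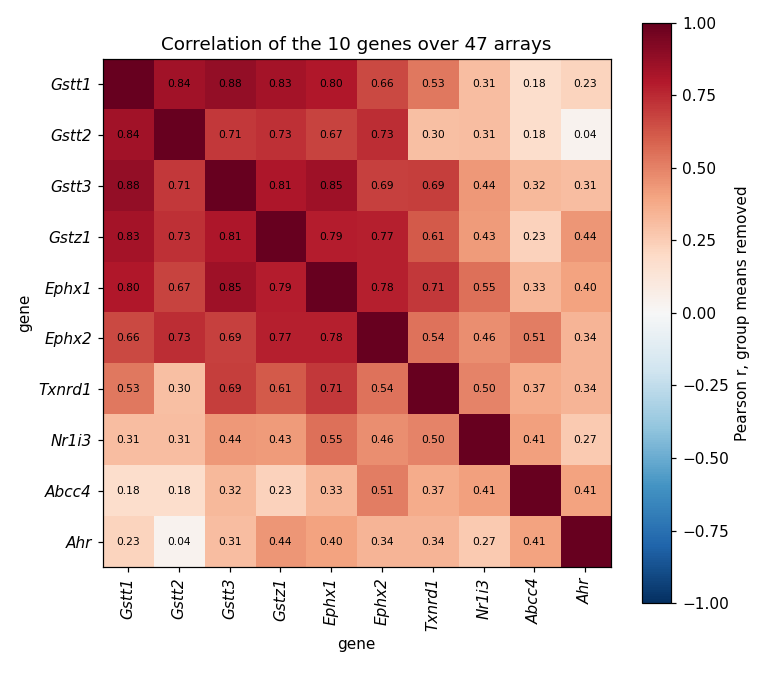
Pearson's r for each pair of the 10 genes (both axes) over 47 arrays with group means removed. The 6 conjugating and hydrolysing enzymes at the upper left have r from 0.66 to 0.88, while Ahr and Gstt2 have r = 0.04.

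Of the other 6888 genes, those most like each member over the 47 arrays, with group means removed, differed from gene to gene. Nr1i3 was followed most closely by Clmn (r = 0.85), by Ppara (0.84), the fatty-acid-sensing nuclear receptor, and by Tomm40l (0.82), which overlaps the end of Nr1i3 on chromosome 1, so that their signals may not be separate. Gstt1 was closest to Pemt (0.94), which makes phosphatidylcholine, Samm50 (0.94) and Slc25a39 (0.93). Gstt2 was closest to Asgr1 (0.93), the asialoglycoprotein receptor of hepatocytes, Mif (0.91), a neighbour of the theta cluster on chromosome 10, and Sft2d1 (0.90). Gstt3 was closest to Dcaf11 (0.91), Shmt2 (0.91) and Sdha (0.90), and Gstz1 to Slc25a5 (0.93), Upb1 (0.92) and Sec23a (0.92).

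For the hydrolases the closest genes were Eif4b, Cyp2d22 and Pttg1ip with Ephx1 (r = 0.89 each) and Mtarc1 (0.90), Mtarc2 (0.86) and Cyp27a1 (0.86), an enzyme of bile acid synthesis, with Ephx2. Txnrd1 was closest to Oxsm (0.87), Thrb (0.86), a thyroid hormone receptor, and Suox (0.84). Likeness was weaker for Ahr, with Scyl2 (0.67), Trip11 (0.66) and Mark3 (0.65), and these were 0.53, 0.52 and 0.51 without Organic-UVR replicate 1. It was also weaker for Abcc4, with Fmo1 (0.65), Lgr5 (0.63), a pericentral marker, and Lect2 (0.62). These are descriptions over the same arrays, without a test.

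Other genes of the same pathways were described from lists. Their calls are read beside the shares of all transcripts called, 4.94% with organic-filter products, 3.27% in Organic-UVR against Control-UVR, 0.652% in TiO2 + UVR against TiO2-UVR, 0.703% in TiO2 + UVR against Control + UVR and 0.0509% in Control + UVR against Control-UVR. The first 2 shares were 3.41% and 0.672% without Organic-UVR replicate 1. Leaving out that array and fitting the array slope were applied to the lists after seeing the data. Of 14 measured receptors and regulators (28 listed), Bach1, a repressor of the antioxidant response, rose with organic-filter products against those without (0.23, limma adjusted p = 0.0865) and Sqstm1, an autophagy adaptor that binds Keap1, fell by 0.31 (limma adjusted p = 0.0976). Bach1 was at 0.25 (limma adjusted p = 0.0577) and Sqstm1 at -0.27 (limma adjusted p = 0.154) without Organic-UVR replicate 1, and with the array slope as a covariate 0.27 (limma adjusted p = 0.0644) and -0.16 (limma adjusted p = 0.458). The median of that list was -0.08, against 0.02 over all transcripts, and it was -0.07 without that array and 0.00 with the slope. Of 23 measured thioredoxin, peroxidase and other antioxidant genes (52 listed), Hmox2, the constitutive heme oxygenase, fell by 0.22 in the same comparison (limma adjusted p = 0.0923) and no other gene was called in any of the 20 comparisons. Hmox2 was not called without Organic-UVR replicate 1 (-0.18, limma adjusted p = 0.134) or with the array slope as a covariate (-0.10, limma adjusted p = 0.415). The 3 measured Ahr targets (15 listed) were Ahrr, Aldh3a1 and Lpin1. Lpin1, a phosphatidate phosphatase of triglyceride synthesis, was higher by 1.66 in TiO2 + UVR than in TiO2-UVR (limma adjusted p = 0.0347). It was not called in TiO2 + UVR against Control-UVR (1.20, limma adjusted p = 0.26) or against Control + UVR (1.15, limma adjusted p = 0.277). The array slope as a covariate also added calls. With it 1 of the 3 Ahr targets was called in Organic-UVR against Control-UVR, and 1 with organic-filter products. Of the 14 receptors and regulators, 3 were called with organic-filter products under the slope, and 2 without Organic-UVR replicate 1.

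Of 12 measured ABC and organic ion transporters (46 listed), Abca8b fell by 0.46 in Organic-UVR against Control-UVR (limma adjusted p = 0.0747) and by 0.29 with organic-filter products (limma adjusted p = 0.0174). These Abca8b differences without Organic-UVR replicate 1 were -0.30 (limma adjusted p = 0.401) and -0.25 (limma adjusted p = 0.017), and with the array slope as a covariate -0.25 (limma adjusted p = 0.369) and -0.19 (limma adjusted p = 0.0664). The fall was not seen in every group with organic filters. Abca8b averaged 8.29 in TiO2-UVR, as in Control-UVR (8.29), and 7.91 in TiO2 + UVR. Abcd2, a peroxisomal transporter of fatty acids, averaged 8.79 in Control + UVR, against 9.65 in Control-UVR (difference -0.85, limma adjusted p = 0.0789, and -0.70 with an adjusted p of 0.215 with the array slope as a covariate). It was higher in TiO2 + UVR than in Control + UVR (0.88, limma adjusted p = 0.0148), with a TiO2 + UVR mean of 9.67, near that of Control-UVR. This direction was not particular to the TiO2 product. Abcd2 averaged 9.58 in Organic + UVR and 9.44 in ZnO + UVR, neither called against Control + UVR (limma adjusted p = 0.119 and 0.815). Its mean in TiO2-UVR, which enters the interaction, was 9.09. The Abcd2 interaction of TiO2 sunscreen and UVR was 1.43 (limma adjusted p = 0.0123), where 0.173% of all transcripts were called. None was called in any comparison among 4 of 29 listed other glutathione transferases (Gsta3, Gstm3, Gstt4 and Mgst3), 3 of 37 listed targets of CAR and PXR (Abcc3, Gadd45b and Gstm3), 7 of 48 listed other conjugating enzymes, 7 of 28 listed genes of glutathione supply and breakdown and 2 of 23 listed other hydrolases (Bphl and Lta4h). In Organic-UVR against Control-UVR the medians of these 5 lists were -0.13, -0.24, -0.16, -0.14 and -0.36, against 0.03 over all transcripts. Without Organic-UVR replicate 1 they were -0.01, -0.06, -0.03, 0.04 and -0.24, and with the array slope as a covariate 0.02, 0.15, -0.04, 0.02 and -0.18. The members with the smallest p over the 8 groups were Mgst3 and Gstt4, Gadd45b and Gstm3, Sult3a2 and Sult4a1, Ggt5 and Me1, and Bphl and Lta4h.

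Markers of liver cell types were measured beside these genes. Of 11 hepatocyte markers, Hal, the histidine ammonia-lyase, was the single one called, lower by 0.46 with organic-filter products against those without (limma adjusted p = 0.000296), by 0.75 in TiO2 + UVR against Control-UVR (0.012) and by 0.72 in Organic-UVR against Control-UVR (0.0126). The Organic-UVR difference of Hal was -0.66 without replicate 1 of that group (limma adjusted p = 0.0418). Hal was not low in TiO2-UVR, where it averaged 10.525, against 10.417 in Control-UVR. Its difference from TiO2-UVR was -0.85 in TiO2 + UVR (limma adjusted p = 0.00144) and -0.83 in Organic-UVR (limma adjusted p = 0.00221). Mean hepatocyte marker levels ranged from 11.57 to 11.83 in TiO2 + UVR, from 11.04 to 11.81 in Organic-UVR and from 11.63 to 11.88 in Control-UVR. Of 4 cholangiocyte markers, which were dim, Krt7 averaged 4.92 in Organic-UVR, against 4.36 in Control-UVR (limma adjusted p = 0.00641), and mean levels of the list were 4.61 to 5.24 in Organic-UVR, against 4.53 to 4.85 in Control-UVR. The 5.24 was Organic-UVR replicate 1, the other arrays of that group reached 4.99, and without that array Krt7 differed by 0.49 (limma adjusted p = 0.0314). Krt7 was above Control-UVR in other groups too. The difference was 0.37 in Organic + UVR (limma adjusted p = 0.095), and 0.37 in TiO2 + UVR, 0.31 in ZnO-UVR and 0.30 in Control + UVR, not called. With organic-filter products against those without, Cldn7 was higher by 0.20 and Sox9 lower by 0.24, neither of them called with the array slope as a covariate (limma adjusted p = 0.281 and 0.16). Pecam1, of 5 endothelial markers, was lower by 0.66 in Organic + UVR than in Control-UVR (limma adjusted p = 0.072), and by 0.47 with the slope as a covariate (limma adjusted p = 0.268). None of the measured macrophage (3), stellate cell (5), lymphocyte (4) or pericentral (3) markers was called. Hal was also 1 of the 3 measured periportal markers, of which Cps1 and Arg1 were not called. The part of cell composition in the values of the 10 genes was not tested.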

How the data were processed

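Total RNA was hybridized to Affymetrix Mouse Gene 1.0 ST arrays, and the authors deposited log2 values normalized by robust multi-array average (RMA). Their methods also name a removal of batch effects. Whether the deposited log2 values had it is not given in the sources used here. Of 16383 probesets, 6568 controls were left out. Symbols came from the platform annotation, updated through RefSeq (GRCm38.p6; 7421 of 7450 matched). The 10 genes, the clock genes and all lists were chosen with earlier results of these data known. All 47 arrays entered a single limma 3.58.1 fit (R 4.3.3) with group and replicate number as terms (34 residual degrees of freedom). P-values were adjusted by Benjamini-Hochberg over 9815 transcripts and called under 0.1. Named were the 10 genes, up to 3 called members of each list per comparison (2 uncalled where none was called) and the 3 genes most correlated with each. Tef, Ciart and other uncalled list members and markers were named after their values were seen. Two-sided correlation tests (Python 3.11.15, numpy 2.4.6) permuted arrays 100000 times within groups. Scripts were tested on simulated data. Alternatives were no replicate block, fits of the compared groups alone, quantile normalization, array weights, a filter on dim transcripts, a threshold of 0.05, the slope of each array as a covariate and leaving out each array.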

Additional observations from a re-analysis of the deposited data

Results flagged for a closer look

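Within each group of 5 or 6 arrays, the highest and the lowest value of each gene were compared with the rest of the group by Dixon's criterion at 95%. Of 80 sets of values 5 had an outlying array, and chance alone gives about 1 in 20. 2 of the 5 were Organic-UVR replicate 1, the array with the low slope: Gstz1 was 8.46 there, with the next value at 10.0, and Ephx2 was 8.25, with the next at 9.11. Gstt3 was 7.77 in Control-UVR replicate 4, with the next value at 8.37. Ahr was 7.69 in ZnO-UVR replicate 1, below the next value of 7.88. Abcc4 was 5.87 in TiO2-UVR replicate 2, above the next value of 5.66.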

How the results depend on the processing

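Of 165 counts of called genes under alternatives other than leaving out an array, 160 kept their value and 5 did not. In each of these 5, 1 of the 10 genes was called where none had been, and it was Nr1i3: with arrays weighted, in TiO2 + UVR against Control-UVR, in Organic-UVR against Control-UVR and in the test over all groups, and in TiO2 + UVR against Control-UVR with the array slope as a covariate or with the compared groups fitted alone. The cause was not tested. Leaving out 1 array at a time changed 4 of 389 counts, all for products with organic filters against without, where 0 to 2 genes were called (Ephx1 in all 4 and Gstt1 in 1). The replicate numbers called 3 to 6 genes when 1 array was left out. The 12 differences with an unadjusted p under 0.05 gave 354 values under alternatives, of which 346 stayed on the same side of the threshold and 8 passed it, and none changed sign. Of all 200 differences, 49 changed sign with the array slope as a covariate, 28 with arrays weighted, 20 after quantile normalization, 11 without Organic-UVR replicate 1 and 1 without the replicate block. The fit without the replicate block called 0 of the 10 genes in every comparison. Arrays with the same number were somewhat more alike than others. The median correlation of their deviations from the group mean was 0.145 over 161 pairs, against -0.0318 for pairs with different numbers. Of the 161 pairs 103 had a correlation above 0.1, the lowest being -0.508. In all, 20 of 47 arrays correlated best with their own number, so the likeness did not hold for every array. With the array slope also removed, an alternative added after seeing the data, 14 of 45 pairs of the 10 genes passed, against 29. Of the 30 pairs with clock genes 2 passed, against 14 with replicate number means also removed, 1 with the slope removed and 4 without the 2 arrays farthest from the median. Each gene had 1 transcript, so a mean over its transcripts gave the same value. The number of arrays limits the precision: for 6 against 6 arrays the median transcript had a 95% interval of ± 0.29.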
